A study of Mus musculus with 4 samples.

Results

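Genes of fast-twitch fibres and of skeletal muscle in general were followed across 4 arrays of mouse skin, as a readout of the panniculus carnosus muscle carried in each biopsy. The list held 35 genes, taken by symbol for their known place in the sarcomere, in calcium handling or in the energy supply of muscle. Of these, 33 had a named probe among the 19057 genes named on the array, and no probe was named for Myh2 (myosin heavy chain IIa) or Cacna1s (the voltage sensor of the T tubule). Detection, a detection p-value under 0.01, was reached by 32 members, each on all 4 arrays. Of all named genes, 10926 reached it on at least 1 array and 9111 on all 4. Trdn, which encodes the junctional protein triadin, was not detected on any array and has no ratio.

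The panniculus carnosus is a thin sheet of striated muscle under the dermis of mice, and full-thickness biopsies can include it. Fast fibres contract with the myosin heavy chains of the IIa, IIx and IIb types, paired with fast light chains and switched by calcium through a fast set of troponins. Slow fibres use a different set of paralogues and more oxidative metabolism, with more of the oxygen-binding protein myoglobin.

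The biopsies came from mice on the C57Black6/J background. WT was unwounded wild-type skin and BLT2KO was unwounded skin of mice lacking BLT2, a receptor for leukotriene B4 and 12-HHT. WT_punched and BLT2KO_punched were skin of the same genotypes sampled 2 days after a punch wound. RNA from 5 mm biopsies of 3 mice was pooled for each group, so each group was 1 array of 1 pool. The spread between mice was not measured, no comparison was tested, and no replicate check exists for any difference below. No probe was named for Ltb4r2, the gene of BLT2, so the deletion was not checked here, and the mouse ages and the way the knockout was made are not given in the sources used here.

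Each array carried 45281 probes, of which 36.2% to 38.0% were detected. Undetected probes had a median intensity of 65.1 on WT and 63.9 on BLT2KO, against 93.3 on WT_punched and 89.3 on BLT2KO_punched, so background moved with the wound state, and its part in the ratios was not tested. Skeletal muscle markers were present in the skin biopsies: Acta1, Ckm, Tnnt3, Ttn, Ryr1 and Myh4 were detected on every array, and Neb too, though near the detection limit. The brightest member reached 69.2% to 73.5% of the highest intensity on its array. Heart muscle markers were mostly absent, since of 8 named cardiac genes Nppb was detected on all arrays, Myh6 on 1, and Nppa, Myl7, Tnni3, Ryr2, Mybpc3 and Hcn4 on none. Because whole biopsies were measured, fewer muscle cells and less RNA per muscle cell cannot be told apart in any result here.

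As a group, the members lay slightly below all genes at the median with punching, and single members differed in direction, mostly alike in both genotypes. In WT_punched against WT, 10 of 32 members were lower by 0.32 or more on the log2 scale, 5 were higher and 17 lay between. That size, used throughout as the lower threshold, was passed downward by 16.8% and upward by 19.5% of all genes measured in the comparison. In BLT2KO_punched against BLT2KO, 11 members were lower, 7 were higher and 14 lay between, against 19% lower and 19% higher among all genes. Over the members, the log2 ratio had a median of -0.17 for WT and of -0.18 for BLT2KO, where the median of all genes was 0.03 and 0.00. The split depended on the scaling of the arrays. When arrays were scaled to a common median in place of quantile normalization, the share of higher genes among members past the lower threshold went from 33.3% to 61.5% in WT and from 38.9% to 52.9% in BLT2KO, while the median of all genes itself shifted to 0.25 and 0.16.

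Past 2-fold, 3 members were lower in each genotype and 0 were higher. The 3 were Myh1, Mb and Myot in both. This balance depended on the scaling: under median scaling 1 member was lower and 2 were higher in WT, and 3 were higher in BLT2KO. The Myot log2 ratios of -1.16 and -1.28 were -0.67 and -0.68 on the processed values. Among all genes, 1.48% were lower and 1.94% higher by 2-fold in WT, and 1.71% and 3.1% in BLT2KO. The WT and BLT2KO wound comparisons share no array. Across the 32 members their ratios had the same sign for 27 (84.4%), against 74.6% of the 9111 genes detected on all arrays. Across genes, Pearson's r between both sets of ratios was 0.91 for the members and 0.70 for all genes, as a description, since genes of the same libraries are not independent replicates.

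**Figure D1:**
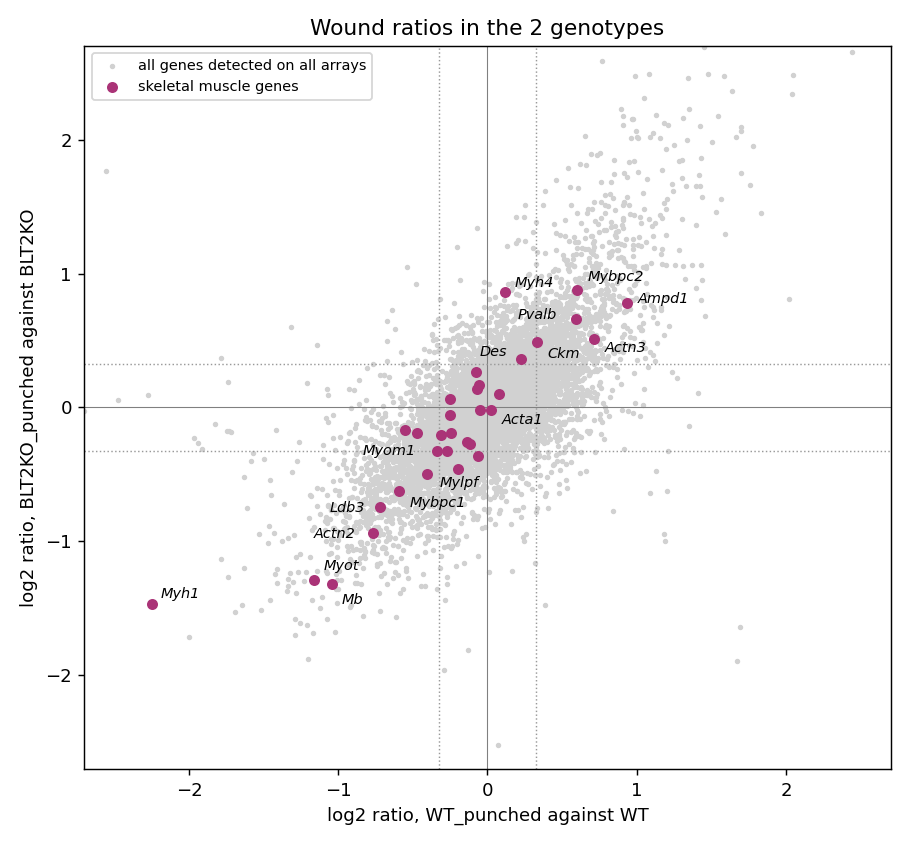
Log2 ratio of punched over unwounded skin in WT (horizontal) against BLT2KO (vertical), for the 32 detected skeletal muscle genes (purple) over the 9111 genes detected on all arrays (grey), with dotted lines at the lower threshold of 0.32 and 36 grey genes outside the plotted range. Myh1, Mb and Myot lie at the lower left and Ampd1, Mybpc2, Actn3 and Pvalb at the upper right, with Acta1 near the origin.

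The wound ratio was past the lower threshold in the same direction in both genotypes for 13 members, and for 0 members in opposite directions. Opposite directions were also rare over all genes, at 82 of 9111. Lower in both were 8: Myh1, Mylpf, Actn2, Mybpc1, Mb, Ldb3, Myom1 and Myot. Higher in both were 5: Ckm, Pvalb, Actn3, Mybpc2 and Ampd1. Among all genes 10.7% were lower in both and 11% were higher in both. Both punched arrays were below both unwounded arrays for 18 of 32 members and above them for 5, with overlap for the other 9. The matching shares of all genes were 27.7% and 30.5%.

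Myosin heavy chains came apart. Myh1, the IIx chain, had a log2 level of 10.50 on WT, 10.26 on BLT2KO, 8.25 on WT_punched and 8.79 on BLT2KO_punched. Both punched arrays were below both unwounded arrays, 4.75-fold in WT and 2.76-fold in BLT2KO, and its range of 2.25 was the widest among the members. The other Myh1 probe was dim, detected on 2 arrays, and lower by 1.59-fold and 1.58-fold. With the mean of detected probes Myh1 stood at log2 ratios of -1.46 for WT and -1.06 for BLT2KO, against -2.25 and -1.47 from the brighter probe. The deposited intensities, before background correction, were 1261, 1224, 398 and 573 in the same order. Myh4, the IIb chain of the fastest fibres, had 9.09, 8.14, 9.21 and 9.0, so the BLT2KO array was low and the other arrays were close together. With punching it was higher by 1.09-fold in WT and by 1.82-fold in BLT2KO. These genes are close relatives in 1 cluster on chromosome 11, and the probe sequences were not used here, so signal shared between myosin probes was not tested.

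The start regions of Myh1 and Myh4 are shown together, followed by those of Mybpc1 and Mybpc2, because these related genes differed in their wound ratios. Each line gives the 250 bases before the gene's start from RefSeq, build GRCm38.p6, 5′ to 3′ on the gene's strand: chr11:67199852-67200101 on the plus strand for Myh1, chr11:67237562-67237811 on the plus strand for Myh4, chr10:88605153-88605402 on the minus strand for Mybpc1 and chr7:44524670-44524919 on the minus strand for Mybpc2. Capitals mark CAGCTG (an E-box bound by myogenic factors), CATTCC (the M-CAT element), TATAAA (the TATA box) and matches to the MEF2 motif, each on either strand.
Myh1: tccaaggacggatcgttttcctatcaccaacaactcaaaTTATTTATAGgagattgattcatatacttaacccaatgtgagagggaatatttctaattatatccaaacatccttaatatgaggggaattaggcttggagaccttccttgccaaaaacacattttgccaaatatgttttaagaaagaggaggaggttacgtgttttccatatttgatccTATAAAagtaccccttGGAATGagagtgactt
Myh4: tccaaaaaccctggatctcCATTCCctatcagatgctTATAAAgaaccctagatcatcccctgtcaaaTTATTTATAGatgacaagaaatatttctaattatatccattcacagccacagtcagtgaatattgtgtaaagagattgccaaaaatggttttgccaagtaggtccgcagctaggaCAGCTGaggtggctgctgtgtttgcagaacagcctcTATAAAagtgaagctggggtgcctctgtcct
Mybpc1: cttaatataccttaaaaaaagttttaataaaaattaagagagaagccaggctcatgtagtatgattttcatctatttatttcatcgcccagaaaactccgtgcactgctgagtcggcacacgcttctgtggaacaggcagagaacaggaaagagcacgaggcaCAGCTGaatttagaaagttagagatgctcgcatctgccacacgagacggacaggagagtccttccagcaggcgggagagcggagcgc
Mybpc2: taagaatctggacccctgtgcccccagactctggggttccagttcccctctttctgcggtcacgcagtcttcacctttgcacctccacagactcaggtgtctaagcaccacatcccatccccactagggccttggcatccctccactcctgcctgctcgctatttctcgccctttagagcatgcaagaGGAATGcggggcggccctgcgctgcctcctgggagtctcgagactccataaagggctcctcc

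A MEF2 match overlapping a TATAAA match on the other strand stood in both myosin windows, 211 bases before the start in Myh1 and 182 in Myh4, and a further TATAAA lay 32 and 31 bases before the start. CAGCTG, a form of the general E-box CANNTG, was in the Myh4 and Mybpc1 windows and in neither of the others, so it did not follow the direction of the wound ratio in these 4 genes. RefSeq windows were matched for 25 members, some with several starts, 29 windows in all of 32851. CAGCTG stood in 51.7% of the member windows against 13.0% of all windows, and the MEF2 motif in 17.2% against 2.9%. CANNTG stood in 79.3% against 66.2%, CATTCC in 24.1% against 12.6% and TATAAA in 13.8% against 12.4%. A match describes the letters of the window and not a bound site.

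Among the remaining contractile members, Mylpf passed the lower threshold in both genotypes and Myl1 in BLT2KO. Acta1, the actin of the skeletal thin filament, had log2 levels of 14.45, 14.41, 14.47 and 14.39 on WT, BLT2KO, WT_punched and BLT2KO_punched, the narrowest range of the detected members at 0.08. Its probe was among the brightest on the array, where intensity can compress. The regulatory light chain Mylpf stood at 13.33, 13.23, 12.92 and 12.74, with both punched arrays below both unwounded arrays, 1.32-fold in WT and 1.41-fold in BLT2KO. Fast troponin C, Tnnc2, which binds the calcium that starts contraction, had 13.89, 13.79, 13.64 and 13.73, and the inhibitory subunit Tnni2 had 13.39, 13.17, 13.14 and 13.23. Tnnt3, which ties troponin to tropomyosin, had 12.40, 12.11, 12.09 and 11.90. Wound ratios of these 3 troponins and of the tropomyosin Tpm2 were all within the lower threshold in both genotypes.

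Myl1, the essential light chain of fast myosin, gave different sizes from its 3 detected probes. The brightest read 14.27, 14.45, 14.20 and 14.09, which was 1.05-fold lower in WT_punched and 1.29-fold lower in BLT2KO_punched. The second read 11.90, 11.88, 11.17 and 11.09, lower by 1.66-fold and 1.74-fold. The dimmest read 8.92, 9.36, 7.74 and 7.28, lower by 2.26-fold and 4.22-fold. All 3 probes were lower in punched skin in both genotypes, and the size of the difference was greater for dimmer probes. Whether they read different transcripts of the gene was not tested.

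**Figure D2:**
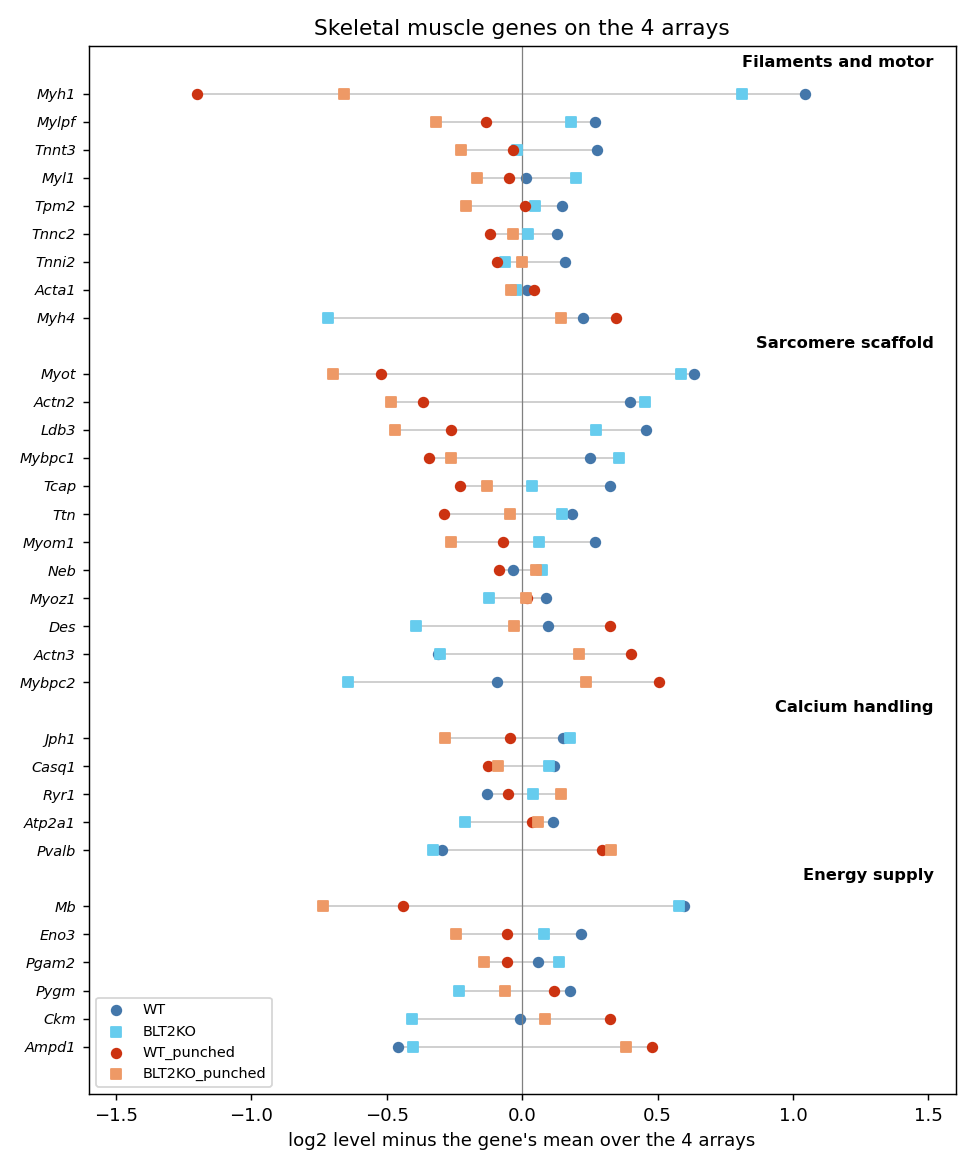
Log2 level of each detected skeletal muscle gene on the 4 arrays, as the difference from that gene's mean (horizontal), grouped by role, with 1 point per array and a grey line over the range. For Myh1, Myot, Actn2, Ldb3 and Mb both punched arrays (red and orange) lie left of both unwounded arrays (dark and light blue), and for Actn3, Mybpc2, Pvalb, Ckm and Ampd1 they lie to the right.

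Scaffold genes, which hold the filaments in register at the Z disc and the M line, made up 12 of the 32 members. In WT, 7 were lower and 2 higher past the lower threshold, with a median log2 ratio of -0.41. In BLT2KO, 5 were lower and 3 higher, with a median of -0.18. The matching shares of all genes were 16.8% lower and 19.5% higher in WT, and 19% each way in BLT2KO. Actn2, the alpha-actinin of the Z disc in all fibres, had 13.16, 13.21, 12.39 and 12.28. Both punched arrays were lower, 1.70-fold in WT and 1.91-fold in BLT2KO. Actn3, its paralogue in fast glycolytic fibres, went the other way at 11.15, 11.16, 11.87 and 11.68, higher by 1.64-fold and 1.43-fold.

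Myosin-binding protein C showed the same division. Mybpc1, known as the slow isoform though fast fibres also make it, had 9.46, 9.57, 8.87 and 8.95, lower by 1.51-fold in WT and 1.54-fold in BLT2KO. Mybpc2, the fast isoform, had 10.29, 9.74, 10.89 and 10.62, higher by 1.51-fold and 1.84-fold. In each of these pairs the groups did not overlap, and the direction was opposite between the paralogues in both genotypes.

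The Z-disc proteins myotilin and LDB3 were lower as well. Myot had 7.19, 7.13, 6.03 and 5.85, lower by 2.23-fold in WT and 2.44-fold in BLT2KO, at levels close to the detection floor, where background weighs most. Ldb3, also called ZASP or Cypher, had 9.20, 9.02, 8.48 and 8.27, lower by 1.65-fold and 1.67-fold. Myom1, which crosslinks myosin at the M line, had 9.96, 9.75, 9.61 and 9.43, with log2 ratios of -0.34 and -0.32 at the edge of the lower threshold. The spring protein Ttn and its cap Tcap, lower by 1.39-fold and 1.47-fold in WT, were lower by 1.14-fold and 1.12-fold in BLT2KO. For Ttn these values came from its brightest probe. Its other probes detected on all arrays were lower by only 1.02-fold to 1.19-fold in WT, within the lower threshold. In BLT2KO they were higher by 1.12-fold, 1.19-fold and 1.08-fold, except for a probe that was lower past that threshold. Neb, the ruler of the thin filament, had 5.52, 5.63, 5.47 and 5.61, a narrow range of 0.16 just above the floor, and Myoz1, the fast-fibre calsarcin, had 9.14, 8.93, 9.07 and 9.07.

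Of 5 measured calcium genes, 1 passed the lower threshold in WT and 2 in BLT2KO. Among all genes, 16.8% passed it downward and 19.5% upward in WT, and 19% each way in BLT2KO. Pvalb, the calcium buffer that speeds relaxation of fast fibres, stood at 12.98, 12.95, 13.57 and 13.61, with both punched arrays above both unwounded arrays, 1.51-fold in WT and 1.58-fold in BLT2KO. Atp2a1, the calcium pump of the fast sarcoplasmic reticulum, had 13.96, 13.64, 13.89 and 13.91, so only the BLT2KO array stood lower. The calcium store protein Casq1 had 6.54, 6.52, 6.30 and 6.33, and the release channel Ryr1 was higher by 1.05-fold and 1.07-fold on its brightest probe. Its other probes detected on all arrays were lower, by 1.12-fold in WT and 1.02-fold in BLT2KO and, for the dimmer, by 1.41-fold and 1.07-fold. Jph1, which couples the reticulum to the T tubule, was lower by 1.15-fold in WT and 1.37-fold in BLT2KO.

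Of the 6 energy genes, 2 were higher and 1 lower past the lower threshold in WT, and 2 were higher and 2 lower in BLT2KO. For all genes the shares were 19.5% higher and 16.8% lower in WT, and 19% each way in BLT2KO. Mb, myoglobin, had 12.37, 12.36, 11.34 and 11.04, so the unwounded arrays were almost equal and both punched arrays lay lower, 2.05-fold in WT and 2.49-fold in BLT2KO. Ampd1, the AMP deaminase of muscle, had 9.21, 9.26, 10.14 and 10.05, higher by 1.91-fold and 1.72-fold with no overlap. Ckm, the creatine kinase that rebuilds ATP, had 12.49, 12.09, 12.82 and 12.58, higher by 1.26-fold and 1.40-fold. Of the glycolytic members, the enolase Eno3 had log2 ratios of -0.27 and -0.32. The phosphoglycerate mutase Pgam2 was lower by 1.08-fold and 1.21-fold, and the glycogen phosphorylase Pygm was 1.04-fold lower in WT and 1.13-fold higher in BLT2KO.

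Second probes gave a check on single probes, though not on the animals. Of the members, 13 had several detected probes, with 21 other probes beside the brightest. In WT, 19 of these 21 moved in the direction of the brightest probe, and so did all 15 that belonged to members past the lower threshold. In BLT2KO the counts were 16 of 21 and all 12. The other Mb probe was lower by 2.47-fold and 3.24-fold, the other Mybpc1 probe by 2.31-fold and 2.23-fold and the other Actn2 probe by 1.86-fold and 1.67-fold. The other Ampd1 probe was higher by 2.11-fold and 2.02-fold. One other Actn3 probe was higher by 1.55-fold and 1.37-fold and the dimmer by 1.16-fold and 1.06-fold. Over all genes with 2 detected probes, the SD between probes was a factor of 1.20 in each wound comparison, so ratios near the lower threshold lie near the disagreement between probes of a gene.

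**Figure D3:**
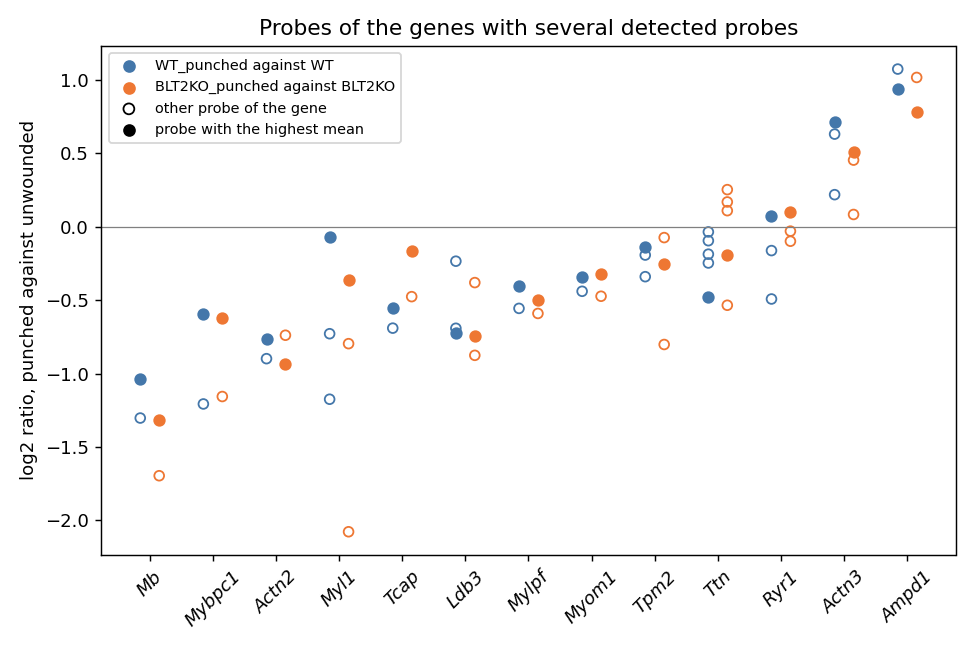
Log2 ratio of punched over unwounded skin (vertical) for every probe detected on all arrays of the 13 genes with several such probes, in WT (blue) and BLT2KO (orange), with the probe of highest mean filled and the others hollow. Every probe of Mb, Mybpc1 and Actn2 lies below 0 and every probe of Ampd1 and Actn3 above 0, while those of Myl1 spread widely.

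The summed signal of the 32 members was 1.50% of the background-corrected array total on WT, 1.42% on BLT2KO, 1.34% on WT_punched and 1.254% on BLT2KO_punched. On the deposited intensities it was 1.19%, 1.16%, 1.03% and 0.98%. These are shares of an array total that also differed between arrays. The background-corrected sum of the 32 members was 150100 on WT, 161100 on BLT2KO, 165800 on WT_punched and 159800 on BLT2KO_punched. That member sum was higher with punching in WT and slightly lower in BLT2KO. Contractile members took the larger part of the member signal. Their share of the array total was lower on the punched arrays, at 0.836%, 0.814%, 0.710% and 0.663%. Calcium members did not follow, at 0.220%, 0.199%, 0.239% and 0.237%. Acta1, Myl1, Atp2a1, Tnnc2 and Pvalb together made up 48.5% to 52.0% of the member signal, so the sum mostly reports a few bright genes. Keratinocyte markers summed to 0.806%, 0.921%, 0.722% and 0.675% and neutrophil markers to 0.122%, 0.0407%, 0.230% and 0.202%. Summed marker signals of other cell types thus differed between arrays too, and their part in the muscle ratios was not tested.

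Between genotypes the members differed less. In BLT2KO against WT, 0 of 32 members passed 2-fold, where 2.26% of all genes did. Past the lower threshold, 6 were lower (Myh4, Mybpc2, Des, Pygm, Ckm and Atp2a1) and 0 were higher, against 13.8% and 11.5% of all genes, and the median was -0.10. Under median scaling the counts were 3 lower and 2 higher, and the share of higher genes went from 0 to 40.0%. Myh4 was the most different at 1.92-fold lower, followed by Mybpc2 at 1.47-fold lower. Of the 21 other probes of members, 7 moved in the direction of the brightest probe here. However, 0 of the 21 belonged to members past the lower threshold, so the 6 had no second probe to check them.

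In BLT2KO_punched against WT_punched, 0 members passed 2-fold, where 1.62% of all genes did. Myh1 was higher by 1.46-fold and Des lower by 1.28-fold, and the other 30 were within the lower threshold, while 10.8% of all genes were lower and 8.01% higher. Des, the intermediate filament that links myofibrils and is also made by smooth muscle, had 12.35, 11.86, 12.58 and 12.22, so it was lower in both knockout arrays than in the WT array of the same wound state, 1.40-fold and 1.28-fold. It was the sole member past the lower threshold in both genotype comparisons, and it has 1 probe here. Of the 9111 genes detected on all arrays, 291 were lower past that threshold in both and 310 higher in both. Smooth muscle markers had medians of -0.18 and 0.38 in these comparisons, and their part in the Des values was not tested. The sign was shared between these comparisons by 18 of 32 members, or 56.3%, against 62.4% of all genes.

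The wound ratio in BLT2KO exceeded that in WT by the lower threshold or more for 4 members, with differences in log2 of 0.78 for Myh1, 0.74 for Myh4, 0.39 for Tcap and 0.34 for Atp2a1, and 0 fell short of it by as much. The direction depended on the setting: under median scaling 2 members were higher and 3 lower, which put the share of higher genes at 40.0%, and with the mean of detected probes 2 were lower. Among all genes 25.8% passed in either direction. The SD between probes for this difference was a factor of 1.29, and no test of it was possible with 1 array a group. For Myh4 and Atp2a1 the array that stood apart was the unwounded BLT2KO array, which was low, as their levels above show.

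Slow and developmental counterparts are given beside their fast relatives, with no test of the difference. Tnnc1, the slow and cardiac troponin C, had 6.17, 6.10, 10.68 and 7.66, higher by 22.7-fold in WT_punched and 2.95-fold in BLT2KO_punched. Tnnt1, slow troponin T, had 7.84, 8.18, 10.95 and 8.64, higher by 8.60-fold and 1.38-fold. Slow troponin I, Tnni1, was detected on WT_punched alone, at 5.82, at least 1.51-fold above WT. In the fast set, Tnnc2, Tnnt3 and Tnni2 were 1.19-fold, 1.24-fold and 1.19-fold lower in WT_punched.

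The slow light chain Myl2 was detected on 2 arrays, at 10.20 on WT_punched and 5.37 on BLT2KO_punched, at least 31.4-fold higher with punching in WT. Myl3, the slow essential light chain, was detected on WT_punched alone at 10.13, at least 30.0-fold above WT. Actc1, the actin of heart and of immature skeletal muscle, had 6.26, 6.38, 9.0 and 8.10, higher by 6.71-fold and 3.31-fold while Acta1 was level. Atp2a2, the slow-fibre and general calcium pump, had 9.76, 9.91, 10.80 and 9.93. WT_punched was the highest array for each of these genes, with BLT2KO_punched 1.87-fold below it for Actc1. Of the 32 fast and general members, 0 were 2-fold higher in WT_punched against WT, where only 1.94% of all genes were. Adipocyte markers were also lower in BLT2KO_punched than in WT_punched. All 10 of 10 measured were past the lower threshold, against 10.8% of all genes, with a median of -1.04. They summed to 0.115%, 0.122%, 0.142% and 0.0778% of the array signal, and their part in the gap between the punched arrays was not tested.

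**Figure D4:**
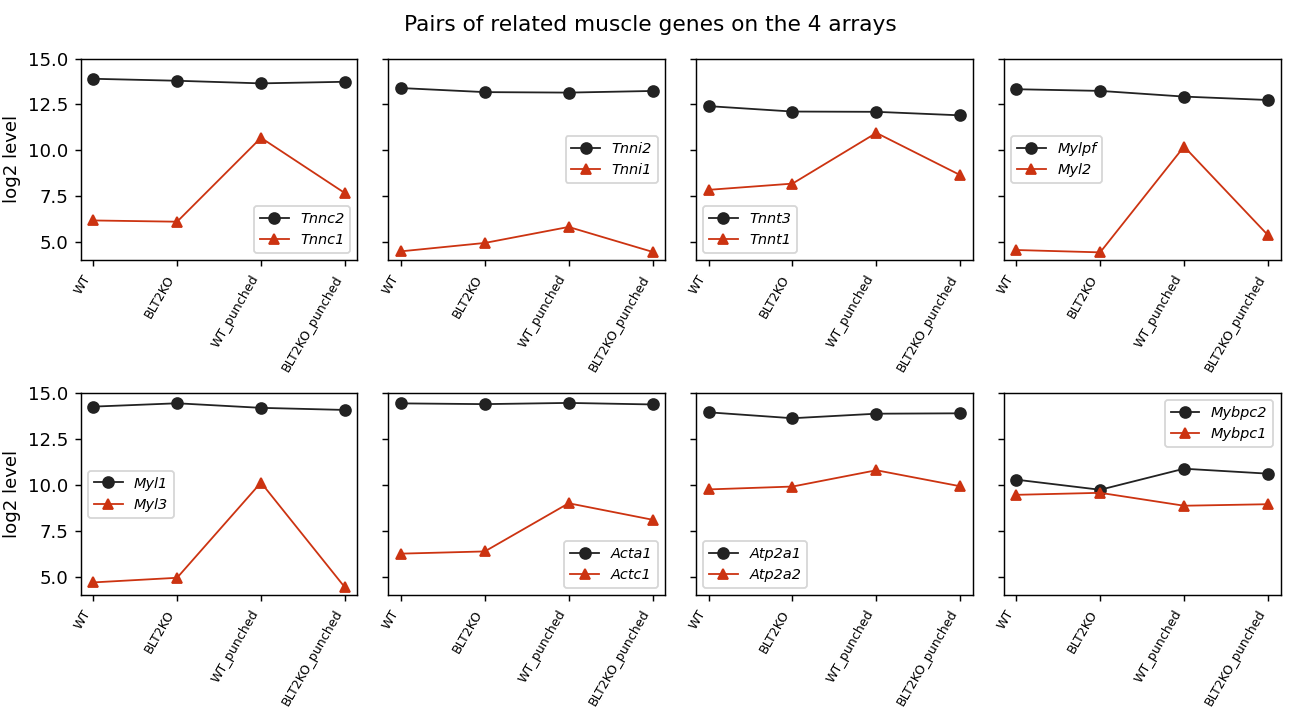
Log2 level (vertical) on the 4 arrays for 8 pairs of related genes, with the fast or skeletal member in black circles and the slow, cardiac or other paralogue in red triangles. Lines only join the arrays of 1 gene, heights of different probes are not comparable, and points under about 5.2 were not detected. In WT_punched, Tnnc1, Tnnt1, Myl2 and Myl3 stand far above their other arrays, and Actc1 is higher on both punched arrays, while the fast or skeletal partners cover a much narrower range.

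The whole slow and developmental list had 18 named genes of 21. In WT, 9 of the 16 measured were higher and 1 lower by 2-fold, with a median of 1.11. In BLT2KO, 3 of 14 were higher and 3 lower, with a median of 0.10. Among all genes, 1.94% were higher and 1.48% lower by 2-fold in WT, and 3.1% and 1.71% in BLT2KO. Myh7, the slow myosin heavy chain, was not detected on any array. Not all were higher in WT_punched: Csrp3, a stress-sensing LIM protein of striated muscle, was lower by 2.43-fold and 2.61-fold, and Ankrd2, an ankyrin repeat protein of slow fibres, by 1.46-fold and 2.33-fold. Myoz2, the calsarcin of slow fibres and heart, was lower by 1.70-fold and 2.05-fold. Csrp3 moved as Mb and Myot did, in the same direction in both genotypes.

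Other genes of muscle pathways gave a similar division on a longer list, with 69 named of 81. In WT, 17 of 60 measured were lower and 9 higher past the lower threshold, and in BLT2KO 22 of 57 were lower and 12 higher, with medians of -0.06 and -0.16. Among all genes, 16.8% passed that threshold downward and 19.5% upward in WT, and 19% each way in BLT2KO. Both wound comparisons passed the lower threshold downward for 15 of 57 and upward for 7, against 10.7% and 11% of all genes. The sign was shared by 71.9% of these 57, against 74.6% of all genes. Xirp2, an actin-binding repair protein of the muscle junctions, was lower by 3.12-fold and 2.78-fold, and Pdlim5, a Z-disc adaptor, by 2.44-fold and 2.99-fold. Fbp2, the muscle fructose bisphosphatase, was lower by 2.28-fold and 2.17-fold, and the small heat shock protein Hspb7 by 1.78-fold and 2.14-fold. Phkg1, the catalytic subunit of muscle phosphorylase kinase, was higher by 1.79-fold and 1.88-fold.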

How the data were processed

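Total RNA was amplified, biotin-labelled and hybridised to Illumina MouseWG-6 BeadChips, per the labels' protocols. The authors deposited 1 intensity per probe without normalization and, per the file headers, a detection p-value beside it. They also deposited processed intensity values, which were the same intensities multiplied by 1 constant per array, used here as an alternative, and why those constants were chosen is not stated. No BeadStudio version is given by the labels.

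Here, limma 3.58.1 under R 4.3.3 was applied to the intensities: normexp background correction from the detection p-values, an offset of 16, quantile normalization over 4 arrays and log2. Later steps used Python 3.11.15, numpy 2.4.6, pandas 2.3.3 and matplotlib 3.10.9. Of 45281 probes, 34885 had 1 gene in the platform annotation, 18 had several and 10378 were not listed. The probe with the highest mean stood for a gene.

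A gene was measured in a comparison when its detection p-value was under 0.01 on at least 1 of 2 arrays. Where only 1 detected it, the other side was its own level or, if greater, the lowest detected log2 level of that array (5.23 on WT, 5.20 on BLT2KO, 5.20 on WT_punched and 5.10 on BLT2KO_punched), and its fold is given as at least that size. Folds are unlogged log2 differences and carry the offset, which understates those of dim genes. With 1 array per group no p-value was computed, and the number of arrays limits the precision. The steps were tested on simulated data.

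Values on every array are given for the myosin heavy chains, for fast genes beside their slow counterparts, for the 8 members with the widest and the 4 with the narrowest range and for members past the lower threshold in both comparisons, and up to 4 genes of other lists. Phkg1, the cardiac genes and further examples were added after their values were seen. The members and lists were chosen with earlier results of these data known. Alternatives were no background correction, an offset of 50, median scaling, the processed values, the mean of detected probes, no detection filter, detection on all arrays, and leaving out Des, Tpm2 and the brightest probes.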

Additional observations from a re-analysis of the deposited data

Results flagged for a closer look

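Myh8, the perinatal myosin heavy chain, had a wound log2 ratio of 1.18 in WT and -0.95 in BLT2KO. It stood out because the single array pair of each genotype went opposite ways, and the difference was not tested. Its log2 levels were 9.64 on WT, 11.19 on BLT2KO, 10.82 on WT_punched and 10.24 on BLT2KO_punched, so the unwounded BLT2KO array was the highest. None of the fast and general members was past the lower threshold in opposite directions in the 2 wound comparisons. Over all genes detected on all arrays, only 82 of 9111 were.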

How the results depend on the processing

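Of the counts and medians for the members, 194 alternative values stayed within 1.5 times or the spread between probes and 14 moved. Median scaling moved 9. It gave 1 member lower and 2 higher by 2-fold in WT_punched against WT, 5 lower and 8 higher by the lower threshold, 3 higher by 2-fold in BLT2KO_punched against BLT2KO, 3 lower and 2 higher by the lower threshold in BLT2KO against WT, and 3 lower and 2 higher for the difference of wound ratios. The mean of detected probes gave 1 member higher by 2-fold in WT, 2 lower and 0 higher by the lower threshold in BLT2KO_punched against WT_punched, and 2 lower for the difference of wound ratios. Without Des, Tpm2 and the brightest probes, leaving 29 members, 0 were lower by the lower threshold in BLT2KO_punched against WT_punched. The cause was not tested, except that this last setting leaves Des out. The members' median ranged from -0.25 to 0.01 in WT, from -0.23 to -0.05 in BLT2KO, from -0.10 to 0.07 for BLT2KO against WT and from -0.09 to 0.04 for the difference of wound ratios, so 3 of these changed sign, each under median scaling. The balance past 2-fold in WT turned there too.

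The 8 members lower in both wound comparisons and the 5 higher in both kept their direction in all 7 settings run with every member, though Myom1 was at -0.01 in WT under median scaling. Past the lower threshold in both, Myom1 was lost without background correction, with an offset of 50 and on the processed values, Mylpf, Mybpc1 and Myom1 under median scaling, and Ckm on the processed values. Of the single members' values, 38 moved and 1222 did not. Signal over background limits Myot, Neb and Casq1 most. Arrays of 1 pool each give no measure of variation between mice. No paired analysis was possible because each group had 1 array.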

Other observations

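Several genes that muscle is known to make on losing nerve contact or during repair were higher in punched skin of both genotypes. Chrng, the fetal subunit of the acetylcholine receptor, had log2 levels of 6.80, 6.44, 7.68 and 7.67 on WT, BLT2KO, WT_punched and BLT2KO_punched, higher by 1.83-fold and 2.34-fold with no overlap. Ankrd1, a stress-induced ankyrin repeat protein of muscle, had 8.88, 9.11, 9.94 and 10.04, higher by 2.09-fold and 1.91-fold. Of the 9 measured genes of this list, 5 were higher and 0 lower past the lower threshold in each genotype, with medians of 0.60 and 0.41. Among all genes, 19.5% were higher past it in WT and 19% in BLT2KO. The 5 were not the same genes. Chrng, Ankrd1 and Myog passed in both, Chrnb1 and Ncam1 in WT alone, and Chrna1 and Gadd45a in BLT2KO alone. Other cell types also make some of these genes.

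Cdh15, the M-cadherin of satellite cells and myoblasts, had 6.07, 5.85, 7.24 and 7.03, higher by 2.24-fold and 2.28-fold. Myog, the differentiation factor of myoblasts, was detected on 3 arrays and was 1.79-fold higher in WT_punched and at least 1.91-fold higher in BLT2KO_punched. Of the measured genes on this myogenic and satellite cell list, 4 of 6 were higher past the lower threshold in WT and 4 of 9 in BLT2KO. None was lower past it, and the medians were 0.53 and 0.24. Among all genes, 19.5% and 19% were higher. This list shares Myog with the list before it and holds the member Des, which passed in BLT2KO. Mymk in WT and Myod1 in BLT2KO passed as bounds, since neither was detected on the unwounded array. In BLT2KO, Myf6 was higher by only 1.04-fold and Chodl was lower by 1.20-fold. The satellite cell factors Pax7, Pax3 and Myf5 were not detected on any array.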
